A study of Mus musculus with 11 samples.

Results

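The triggering receptors expressed on myeloid cells (TREM) and the adaptors and kinase that carry their signal were followed in mouse monocytes cultured toward Langerhans-like cells. The 8 genes were taken by symbol from the deposited table of 21860 genes: the receptors Trem1, Trem2, Trem3, Treml2 and Treml4, the adaptors Tyrobp and Hcst, and the kinase Syk. Each of the 8 had 1 row and passed the filter on low values (10 or more normalised counts in 2 or more samples), as did 13095 genes in all.

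TREM receptors have a single extracellular immunoglobulin domain and mostly a short tail that cannot signal by itself. They pair through a charged residue in the membrane with Tyrobp (DAP12), whose immunoreceptor tyrosine-based activation motif (ITAM) is phosphorylated by Src-family kinases and then recruits Syk. Hcst (DAP10) is a related adaptor without an ITAM, which recruits phosphatidylinositol 3-kinase and is best known as the partner of Klrk1 (NKG2D). Trem1 is an amplifier of inflammation on neutrophils and monocytes, Trem2 a lipid and apolipoprotein receptor of macrophages and microglia, and dendritic cells and macrophages use the same route through Syk downstream of several other surface receptors.

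Bulk RNA-seq was made from 11 samples of mouse bone marrow monocytes that were cultured for 6 days and then sorted as CD11b-low EpCAM+ cells. GM-CSF (20 ng/ml) was in all 11 cultures. The TGFβ/IL-34 group (n = 2) also received TGFβ (5 ng/ml) together with IL-34 (8 µg/ml), the TGFβ/IL-34/FICZ group (n = 2) in addition FICZ, a ligand of the aryl hydrocarbon receptor Ahr, the TGFβ/IL-34/Jag1 group (n = 3) the Notch ligand Jag1, and the TGFβ/IL-34/Jag1/FICZ group (n = 3) both. A single further sample (Jag1 only) had GM-CSF and Jag1 without TGFβ or IL-34. The study's text calls FICZ an Ahr agonist while the design text of the series calls it an antagonist, and its dose is not given in the sources used here. Jag1 was presented by 1 line of OP9 cells, a mouse stromal line, so the effect of Jag1 and that of the stromal cells cannot be told apart. Strain and age of the mice, and whether replicates came from separate animals, are not given for these cultures, so p-values measure only the spread between these samples.

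The samples held between 21310445 and 27845052 normalised counts and between 13453 and 14498 genes above 0. As estimated from genes with 1 annotated transcript, 1 sequenced read was worth between 0.892 and 1.15 normalised counts. On that scale 3 reads correspond to 2.68 to 3.45 normalised counts in a sample. Samples of 1 group had a Pearson correlation of log2 values between 0.922 and 0.980, with both TGFβ/IL-34/FICZ samples forming the least similar pair. These 2 differ in experiment code and flow cell in the labels. So do replicates 1 and 2 of TGFβ/IL-34/Jag1/FICZ, which correlated at 0.975. The cause of the lower correlation was not tested. Leukocyte and mononuclear phagocyte markers summed to between 29995 and 73837 normalised counts, and Langerhans cell markers (Cd207, Epcam, Cd24a, Cdh1) to between 10574 and 48050, while Cd207, which encodes langerin, was at 1366 to 1784 in the TGFβ/IL-34/Jag1 samples and at most 157 in all others. All samples are labelled as OP9 co-cultures, but the 9 stroma markers summed to 12.8 to 38.0 normalised counts in the 4 samples without Jag1 and to 391 to 4630 in the 7 with it, with Dcn and Lum at 0 throughout. T cell markers summed to at most 154, B cell markers to at most 36.7 and NK cell markers to at most 108 normalised counts.

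The 5 receptor genes lie in 1 cluster of 121 kb on the + strand of chromosome 17 (GRCm39), in the order Trem1 (48539784 to 48553952), Trem3 (48554788 to 48565876), Treml4 (48571323 to 48582388), Treml2 (48606526 to 48619561) and Trem2 (48653429 to 48661175). The 2 adaptor genes are neighbours on chromosome 7, Tyrobp on the + strand (30113170 to 30117010) and Hcst on the opposite strand (30117135 to 30119297), with 124 bases between their 3′ ends. Syk is on chromosome 13 (52736696 to 52802828, + strand). The 250 bases before the start of the canonical transcript of the 5 clustered receptors are printed, because 4 of them rose with FICZ in the presence of Jag1 while Trem2 did not. With Jag1 and no FICZ all 5 had lower means, though Trem2 did not pass the test. The Treml2 window lies inside the printed span of that gene, in an intron of another annotated transcript that starts further upstream. Capitals mark matches on either strand to 3 short motifs: GCGTG, the core of the Ahr response element, TGGGAA, the RBPJ motif of Notch target genes, and GAGGAA, the core of the site of the myeloid factor PU.1.
Trem1, chr17:48539534-48539783, + strand: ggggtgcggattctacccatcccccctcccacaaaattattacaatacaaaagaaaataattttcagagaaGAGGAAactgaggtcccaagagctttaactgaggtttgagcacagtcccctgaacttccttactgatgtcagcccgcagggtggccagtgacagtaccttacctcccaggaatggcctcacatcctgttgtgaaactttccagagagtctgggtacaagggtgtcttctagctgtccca
Trem3, chr17:48554538-48554787, + strand: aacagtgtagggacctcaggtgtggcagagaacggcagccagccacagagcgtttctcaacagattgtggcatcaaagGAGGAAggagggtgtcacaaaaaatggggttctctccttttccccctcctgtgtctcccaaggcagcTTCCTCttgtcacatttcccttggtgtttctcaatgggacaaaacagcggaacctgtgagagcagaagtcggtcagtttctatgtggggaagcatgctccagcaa
Treml4, chr17:48571073-48571322, + strand: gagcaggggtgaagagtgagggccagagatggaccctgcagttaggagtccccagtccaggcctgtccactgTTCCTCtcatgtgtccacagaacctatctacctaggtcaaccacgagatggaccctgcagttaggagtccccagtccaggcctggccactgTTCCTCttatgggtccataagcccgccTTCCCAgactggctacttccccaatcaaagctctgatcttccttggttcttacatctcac
Treml2, chr17:48606700-48606949, + strand: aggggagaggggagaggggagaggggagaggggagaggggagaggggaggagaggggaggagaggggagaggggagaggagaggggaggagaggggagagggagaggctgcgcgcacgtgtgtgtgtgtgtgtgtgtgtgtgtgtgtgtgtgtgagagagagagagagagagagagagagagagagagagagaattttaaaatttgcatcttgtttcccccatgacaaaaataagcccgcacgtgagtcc
Trem2, chr17:48653179-48653428, + strand: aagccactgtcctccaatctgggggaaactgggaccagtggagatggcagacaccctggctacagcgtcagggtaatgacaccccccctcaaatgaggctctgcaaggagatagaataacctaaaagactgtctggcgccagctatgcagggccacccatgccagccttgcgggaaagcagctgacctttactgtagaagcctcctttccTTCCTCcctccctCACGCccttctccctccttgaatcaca
The sequence of Trem1 holds 1 PU.1 match that begins 179 bases before the start site, and that of Trem3 holds 2, at 172 and 105 bases. Treml4 has 1 RBPJ match at 60 bases and 2 PU.1 matches at 178 and 87 bases. Treml2, whose window holds long simple repeats, has no match to any of the 3 motifs. Trem2 alone of the 8 genes has an Ahr core match in this window, at 27 bases, and it has a PU.1 match at 40 bases. Of the genes outside the cluster, Tyrobp and Syk each have 1 PU.1 match, at 38 and 31 bases, and Hcst has 1 RBPJ match at 214 bases. Such short motifs are common: the Ahr core was found in 31.1%, the RBPJ motif in 22.7% and the PU.1 core in 23.0% of the 21676 windows of the same length, and no matches overlapped. A match is only a match of letters, and no binding was measured here.

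Levels between genes were compared per kilobase of each gene's canonical transcript. On this scale Tyrobp was the most abundant of the 8 in all 5 groups, with a mean of 13137 normalised counts per kb in the TGFβ/IL-34 group, followed by Treml2 at 1614 and Syk at 1541. Trem1 stood at 684, Trem2 at 336, Hcst at 197, Treml4 at 164 and Trem3 at 40.8. The TGFβ/IL-34/Jag1 group had a different order of receptors: Treml2 at 304 remained first, Trem2 at 97.1 was above Trem1 at 65.9, and Treml4 and Trem3 were at 11.3 and 2.35. In the TGFβ/IL-34/Jag1/FICZ group Treml2 was at 1113, Trem1 at 533, Trem3 at 119, Treml4 at 94.5 and Trem2, the lowest, at 68.9. Tyrobp exceeded Hcst per kb by between 44.0-fold (TGFβ/IL-34/Jag1/FICZ) and 106-fold (Jag1 only).

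**Figure D1:**
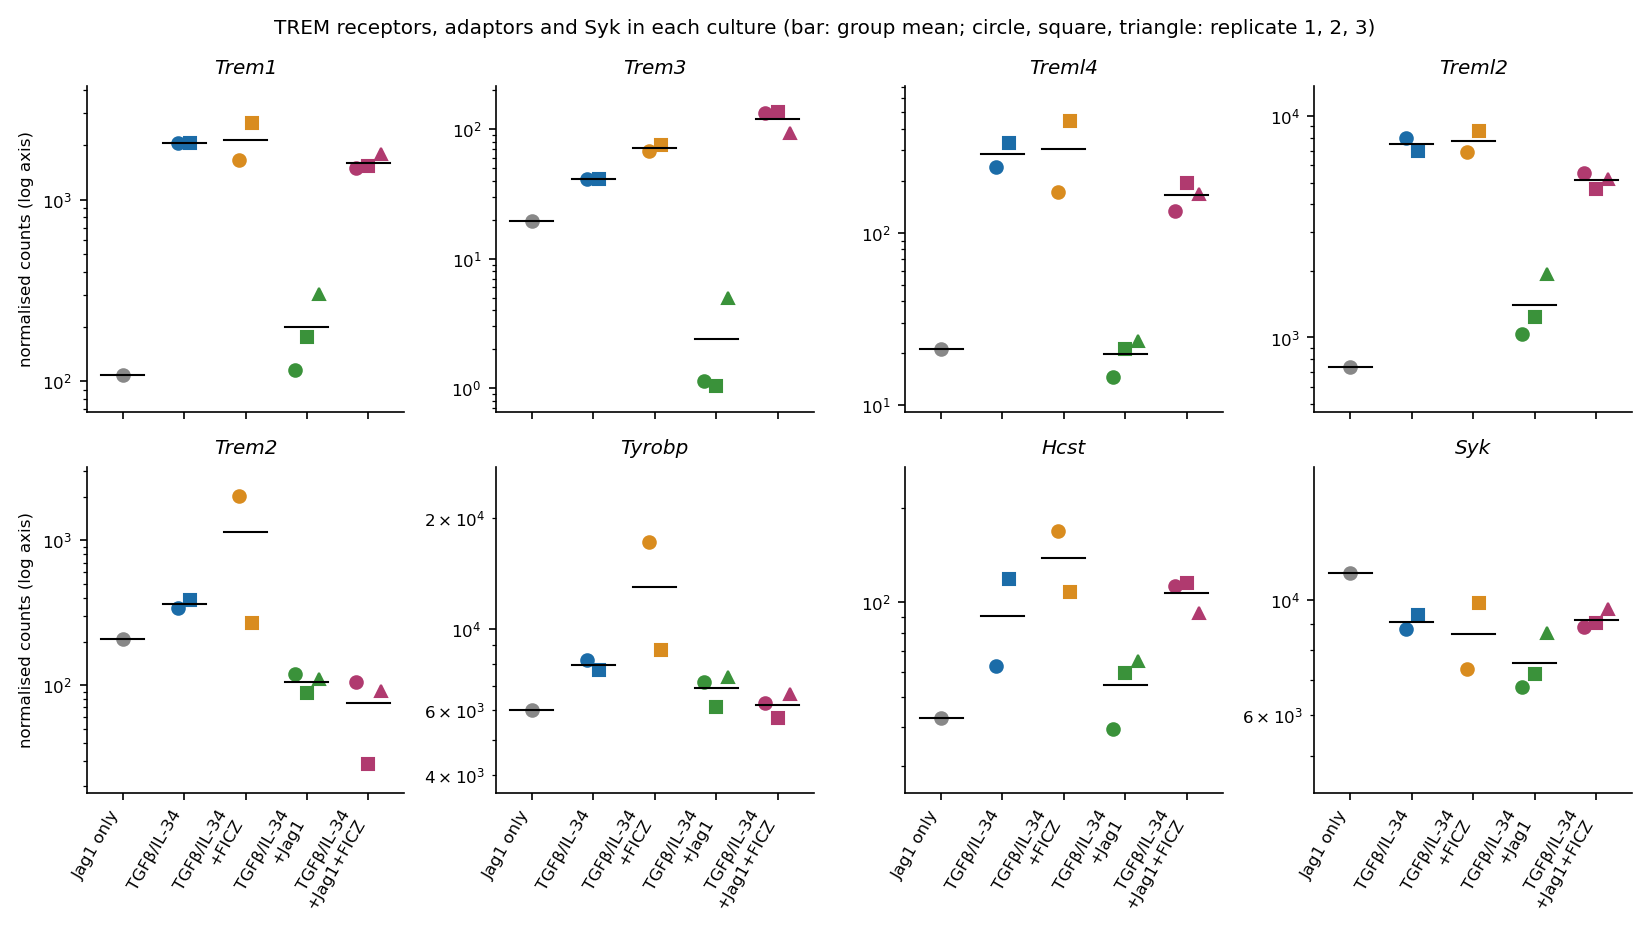
Normalised counts of the 8 genes in each of the 11 samples, by culture group (log axis), each point being 1 sample and each line a group mean. Trem1, Trem3, Treml2 and Treml4 are low in the 3 TGFβ/IL-34/Jag1 samples and at least 3.66 times higher by group mean in the TGFβ/IL-34/Jag1/FICZ samples, whereas Tyrobp and Syk stay within a narrow band apart from TGFβ/IL-34/FICZ replicate 1 for Tyrobp.

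The question of what Jag1 does to cells already given TGFβ and IL-34 is addressed by setting the TGFβ/IL-34/Jag1 group against the TGFβ/IL-34 group. Trem1, Trem3, Treml2 and Treml4 fell with Jag1, and Trem2, Tyrobp, Hcst and Syk did not pass the test (limma on log2(normalised count + 1), Benjamini-Hochberg adjusted over 13095 genes, threshold 0.05). The 4 called genes are 50% of the 8, against 3.96% of all genes tested that were called lower and 6.6% called in either direction. The median log2 fold change was -2.12 over the 8 genes and -0.00409 over all genes tested.

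Trem1 was at 2053 and 2063 normalised counts in the TGFβ/IL-34 samples and at 116, 176 and 303 in the TGFβ/IL-34/Jag1 samples. The groups did not overlap, and their means of 2058 ± 6.57 (SD, n = 2) and 198 ± 95.6 (SD, n = 3) differed 10.4-fold. The log2 fold change was -3.48 (SE 0.35, 95% interval -4.26 to -2.70, adjusted p = 0.00044). Of the 2972 31-base words of the canonical Trem1 transcript, 27.1% also occur in transcripts of other genes, chiefly an antisense long noncoding RNA (ENSMUSG00000135259) with no row in the table, and the strand setting of the counting is not given in the sources used here, so reads of the 2 cannot be told apart in that stretch.

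Treml2, a receptor of B cells and myeloid cells that is not known to need Tyrobp, showed the same order at a higher level. It was at 7940 and 6985 normalised counts without Jag1 and at 1042, 1242 and 1936 with it, a 5.31-fold difference of means with no overlap (log2 fold change -2.45, SE 0.24, 95% interval -3.00 to -1.91, adjusted p = 0.000411). Treml4, a Tyrobp-associated receptor that binds dead cells, was at 241 and 331 against 14.6, 21.1 and 23.4, a 14.5-fold difference of means (log2 fold change -3.80, SE 0.43, adjusted p = 0.000747). Trem3, a mouse receptor that also pairs with Tyrobp, was the rarest: it was at 41.3 and 41.2 normalised counts without Jag1 and at 1.13, 1.04 and 4.97 with it. These last values are 1, 1 and 5 reads, so the ratio was taken from the 86 reads in 2 samples against 7 in 3, which gave 16.7 with an exact 95% interval of 7.78 to 42.9 that covers counting error only (log2 fold change -3.84, SE 0.53, adjusted p = 0.00245).

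Trem2 was at 344 and 389 normalised counts in the TGFβ/IL-34 samples and at 120, 87.7 and 110 in the TGFβ/IL-34/Jag1 samples. The ranges did not overlap and the means differed 3.46-fold, but the call was not passed (log2 fold change -1.79, SE 0.76, 95% interval -3.47 to -0.11, adjusted p = 0.227). Its SD was 1239 normalised counts in the TGFβ/IL-34/FICZ group, which enters the fit but not the comparison, and at most 40.6 in the others. Without TGFβ/IL-34/FICZ replicate 1 the log2 fold change stayed at -1.79 and its adjusted p was 0.0377. The call was gained in 4 of 16 alternatives. Among them were a fit of only the compared groups (-1.79, adjusted p = 0.0123) and array weights (-1.87, adjusted p = 0.0197).

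The adaptors and the kinase differed by less. Tyrobp was at 8240 and 7708 normalised counts without Jag1 and at 7165, 6117 and 7390 with it (log2 fold change -0.21, 95% interval -0.77 to 0.34, adjusted p = 0.744). Hcst was at 62.7 and 119 against 39.4, 59.5 and 65.0, with overlapping ranges (log2 fold change -0.68, 95% interval -1.55 to 0.19, adjusted p = 0.409). Syk was at 8777 and 9332 against 6800, 7203 and 8648 (log2 fold change -0.27, 95% interval -0.67 to 0.13, adjusted p = 0.495). The intervals allow log2 changes of the adaptors and Syk down to -1.55 for Hcst, but their lower bounds lie above the upper bounds of Trem1 and Treml2.

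The contrast could also be taken within the experiment code of the labels, in 2 experiments that hold a sample of both groups. The within-experiment log2 differences were -3.54 to -2.76 for Trem1, -4.37 to -2.82 for Trem3, -2.68 to -1.85 for Treml2, -3.76 to -3.45 for Treml4 and -1.96 to -1.82 for Trem2. The authors' file gives TGFβ/IL-34 replicate 1 another code, that of TGFβ/IL-34/Jag1 replicate 1. Between these 2 samples the differences were -4.13 for Trem1, -4.31 for Trem3, -2.93 for Treml2, -3.96 for Treml4 and -1.51 for Trem2. Stroma markers summed to at most 22.0 normalised counts in TGFβ/IL-34 and to at least 391 in TGFβ/IL-34/Jag1, and neutrophil markers ranged from 391 to 1538 without Jag1 and from 227 to 427 with it. The platelet list, nearly all of it Itga2b, was at 1953 to 2257 without Jag1 and at 516 to 557 with it, and the plasmacytoid dendritic cell list (Ccr9, Tcf4, Bst2), nearly all of it Bst2, at 12140 to 13482 and at 17705 to 20057. The mast cell and basophil sums overlapped (1680 to 2174 and 1130 to 2434), although their member Cpa3 had means of 694 and 114. The part of these genes in the receptor values was not tested. In bulk samples, fewer cells that express a gene and less RNA of it per cell cannot be told apart.

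FICZ without Jag1 was addressed by setting the TGFβ/IL-34/FICZ group against the TGFβ/IL-34 group, where none of the 8 genes passed limma's adjusted test and 1, Tyrobp, had an unadjusted p under 0.05. Over all genes 0.0229% were called, which is 3 genes. The 2 FICZ samples disagreed on several of the genes. Trem1 was at 1646 and 2644 normalised counts in TGFβ/IL-34/FICZ replicates 1 and 2, on both sides of the TGFβ/IL-34 values (log2 fold change 0.02, 95% interval -0.84 to 0.88, adjusted p = 0.982). Treml2 was at 6880 and 8563 (log2 fold change 0.04, 95% interval -0.55 to 0.64) and Treml4 at 172 and 441 (log2 fold change -0.03, 95% interval -1.08 to 1.01), both also straddling the TGFβ/IL-34 samples. Trem3 was at 67.8 and 75.4, above both TGFβ/IL-34 samples (log2 fold change 0.78, 95% interval -0.51 to 2.07, adjusted p = 0.434).

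Trem2 and Tyrobp were set apart in a single FICZ sample. Trem2 stood at 2020 normalised counts in TGFβ/IL-34/FICZ replicate 1 and at 267 in replicate 2, so that the higher value exceeded the other 10 samples and the lower fell below both TGFβ/IL-34 samples (log2 fold change 1.01, 95% interval -0.84 to 2.85, adjusted p = 0.477). Tyrobp stood at 17179 in replicate 1 and 8751 in replicate 2, both above the 2 TGFβ/IL-34 samples (log2 fold change 0.62, 95% interval 0.01 to 1.23, adjusted p = 0.285). Hcst was at 169 and 108 (log2 fold change 0.64, adjusted p = 0.387) and Syk at 7352 and 9853 (log2 fold change -0.09, adjusted p = 0.801). Without replicate 2, which leaves replicate 1 alone in its group, the log2 fold changes of Trem2 and Tyrobp were 2.46 and 1.11. Without replicate 1 the Trem2 value was -0.45. The plasmacytoid dendritic cell list was likewise at 32713 in replicate 1 and 10159 in replicate 2, nearly all of it Bst2, and its part in these values was not tested.

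FICZ in the presence of Jag1 was addressed by setting the TGFβ/IL-34/Jag1/FICZ group against the TGFβ/IL-34/Jag1 group, the comparison in which the same 4 receptor genes rose. The 4 genes are 50% of the 8, against 10.9% of all genes tested that were called higher and 17.7% called in either direction. The median log2 fold change was 1.45 over the 8 genes and -0.00828 over all genes tested. The comparison shares its TGFβ/IL-34/Jag1 samples with that of Jag1 without FICZ, so a low value in those 3 samples enters both.

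Trem1 was at 1491, 1535 and 1780 normalised counts in the TGFβ/IL-34/Jag1/FICZ samples, above the highest TGFβ/IL-34/Jag1 sample at 303. The mean of 1602 ± 156 (SD, n = 3) was 8.08 times that of TGFβ/IL-34/Jag1 (log2 fold change 3.11, SE 0.31, 95% interval 2.42 to 3.81, adjusted p = 0.000154). Trem3 was at 134, 135 and 92.6, from 372 reads against 7, a ratio of 48.7 with an exact 95% counting interval of 23.4 to 122 (log2 fold change 5.34, SE 0.47, adjusted p = 7.55e-05). Its 3 values were higher than those of the other 8 samples, including the samples with FICZ and no Jag1.

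Treml2 was at 5551, 4681 and 5202 normalised counts with both agents, a mean 3.66 times that of TGFβ/IL-34/Jag1 (log2 fold change 1.92, SE 0.22, 95% interval 1.43 to 2.40, adjusted p = 0.000295). Treml4 was at 133, 194 and 168, a mean 8.36 times that of TGFβ/IL-34/Jag1 (log2 fold change 3.01, SE 0.38, 95% interval 2.16 to 3.86, adjusted p = 0.000531). For both genes all 3 samples were above all TGFβ/IL-34/Jag1 samples and below both TGFβ/IL-34 samples.

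Trem2 was at 105, 28.7 and 91.3 normalised counts with Jag1 and FICZ, so its range overlapped that of TGFβ/IL-34/Jag1 (log2 fold change -0.68, 95% interval -2.18 to 0.83, adjusted p = 0.575). Its upper bound lies below the lower bound of Trem1, Trem3, Treml2 and Treml4. Hcst was at 113, 116 and 92.3, above all 3 TGFβ/IL-34/Jag1 samples, and did not pass the test (log2 fold change 0.98, 95% interval 0.20 to 1.76, adjusted p = 0.0827). With the same fold it passed in a fit of only the compared groups (adjusted p = 0.0405) and without TGFβ/IL-34/FICZ replicate 1 (adjusted p = 0.0458). Tyrobp was at 6278, 5728 and 6637 (log2 fold change -0.15, 95% interval -0.64 to 0.35, adjusted p = 0.734), and Syk at 8850, 9031 and 9581 (log2 fold change 0.28, 95% interval -0.07 to 0.64, adjusted p = 0.278).

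Same-numbered samples of these 2 groups share an experiment code, and the differences within the 3 experiments were 2.55 to 3.67 for Trem1, 3.97 to 6.05 for Trem3, 1.43 to 2.41 for Treml2 and 2.79 to 3.14 for Treml4 on the log2 scale. For Hcst they were 0.50 to 1.50 and for Syk 0.15 to 0.38, all positive, for Trem2 -1.58 to -0.19 and for Tyrobp -0.19 to -0.09, all negative. With the replicate number as a block, Syk passed the test as well (log2 fold change 0.28, adjusted p = 0.0469). Markers of other cells also differed between these 6 samples. The 10 neutrophil and precursor markers summed to 227 to 427 normalised counts in TGFβ/IL-34/Jag1 and to 7113 to 10592 with FICZ added, led by Ngp and Elane. Ly6g was at 0 in 10 of 11 samples and Mpo at most 27.2. Csf3r (means 76.6 and 55.3) and Mpo (6.52 and 3.95) went the other way. Mast cell and basophil markers summed to 1130 to 2434 in TGFβ/IL-34/Jag1 and to 4383 to 6315 with FICZ added, with Fcer1a at 0 in all samples. The platelet list was at 516 to 557 and at 4444 to 5576, with Gp9 at 0 in 10 samples. The plasmacytoid dendritic cell list was at 17705 to 20057 in TGFβ/IL-34/Jag1 and at 9062 to 10745 with FICZ added, nearly all of it Bst2 (means 17816 and 9223). Its other members had higher means with FICZ added, Tcf4 726 and 816 and Ccr9 9.62 and 23.2. The part of these cells or genes in the receptor values was not tested.

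**Figure D2:**
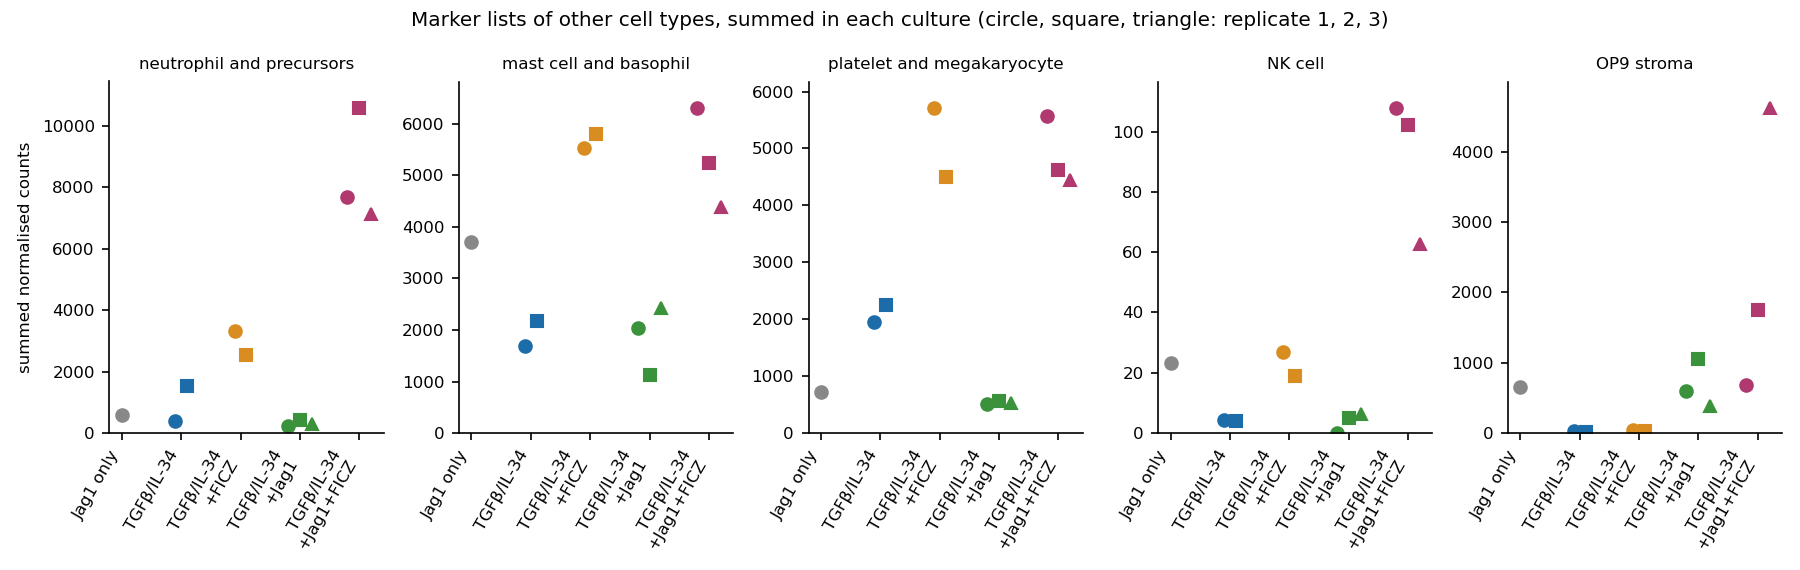
Summed normalised counts of 5 marker lists (neutrophil, mast cell and basophil, platelet, NK cell, OP9 stroma) in each of the 11 samples by culture group, on linear axes from 0, each point being 1 sample. The neutrophil list lies at 7113 to 10592 in the TGFβ/IL-34/Jag1/FICZ samples and at 227 to 427 in the TGFβ/IL-34/Jag1 samples, and the stroma list is at most 38.0 in the samples without Jag1.

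Trem2 behaved otherwise in the remaining comparisons. Jag1 in the presence of FICZ (the group with all agents set against the TGFβ/IL-34/FICZ group) had 1 of the 8 genes called lower, 12.5% of them, against 0.603% of all genes called lower and 2.02% in either direction. That gene was Trem2, with 2020 and 267 normalised counts without Jag1 and 105, 28.7 and 91.3 with it, a 15.3-fold difference of means with no overlap (log2 fold change -3.47, SE 0.76, 95% interval -5.16 to -1.79, adjusted p = 0.0487). The call was lost in 9 of 15 alternatives. Without TGFβ/IL-34/FICZ replicate 1 the log2 fold change was -2.02 (adjusted p = 0.174), and without TGFβ/IL-34/Jag1/FICZ replicate 1, 2 or 3 it was -3.81, -2.90 or -3.71 (adjusted p = 0.0975, 0.159 and 0.109). With the replicate block it was -3.71 (adjusted p = 0.125). Within the 2 experiments that hold both groups the differences were -4.26 and -3.17. Tyrobp was 17179 and 8751 against 6278, 5728 and 6637, again without overlap (log2 fold change -0.98, 95% interval -1.54 to -0.43, adjusted p = 0.0790), and 3 of the 8 genes had an unadjusted p under 0.05. Trem1 (-0.39), Treml2 (-0.58), Treml4 (-0.76) and Trem3 (0.72) had log2 fold changes that did not pass.

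Jag1 and FICZ together against TGFβ/IL-34 called none of the 8 genes by limma's adjusted test, with 4.48% of all genes called, and 2 of the 8 had an unadjusted p under 0.05. These 2 were Trem2 (log2 fold change -2.47, 95% interval -4.15 to -0.79, adjusted p = 0.103) and Trem3 (1.50, 95% interval 0.32 to 2.68, adjusted p = 0.160). Trem2 was at most 105 normalised counts in the group with both agents against at least 344, and Trem3 at least 92.6 against at most 41.3, so neither overlapped. Trem1 (-0.37, 95% interval -1.15 to 0.42), Treml2 (-0.54, -1.08 to 0.01) and Treml4 (-0.79, -1.74 to 0.16) had lower means with both agents, and each had its 3 samples below both TGFβ/IL-34 samples, but they did not pass the test. Between 0 and 5 of the 8 were called over 16 alternatives, in which between 35 and 3558 of all genes were called.

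The difference of the FICZ effect with and without Jag1, the interaction, was called for 4 of the 8 genes, 50%, all 4 higher, against 1.17% of all genes called higher and 1.39% in either direction. It was 3.10 for Trem1 (95% interval 1.99 to 4.20, adjusted p = 0.0268), 4.56 for Trem3 (2.89 to 6.22, adjusted p = 0.0293), 1.87 for Treml2 (1.10 to 2.64, adjusted p = 0.0400) and 3.04 for Treml4 (1.70 to 4.39, adjusted p = 0.0433). For Trem2 it was -1.68 (adjusted p = 0.379), for Tyrobp -0.77 (0.271) and for Syk 0.37 (0.402). All 4 adjusted p-values are close to the threshold, and leaving out either TGFβ/IL-34 sample, TGFβ/IL-34/FICZ replicate 1 or any TGFβ/IL-34/Jag1/FICZ sample left none of the 4 called.

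**Figure D3:**
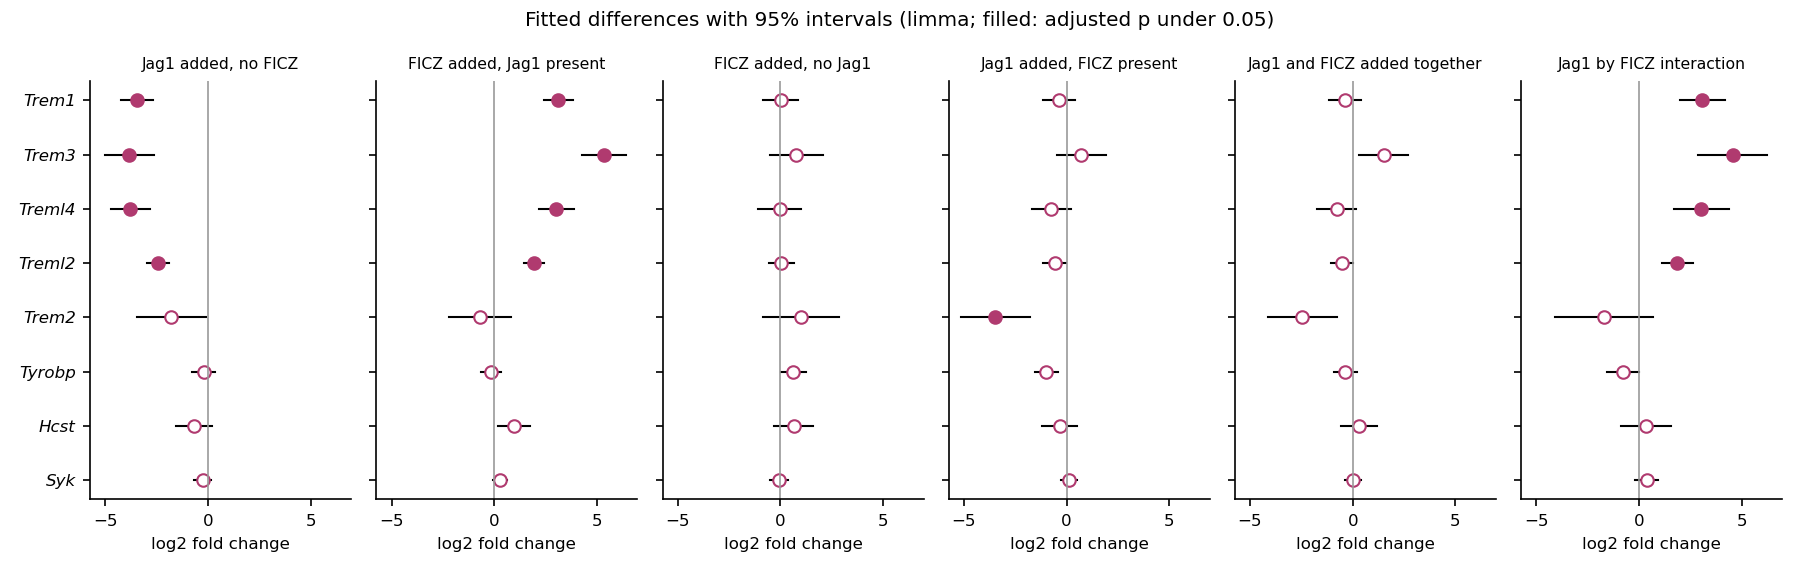
Log2 fold change with its 95% interval for each of the 8 genes in each comparison (limma), filled points being adjusted p under 0.05. With Jag1 and no FICZ, Trem1, Trem3, Treml2 and Treml4 lie between -3.84 and -2.45, and with FICZ in the presence of Jag1 the same genes lie between 1.92 and 5.34.

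The Jag1 only sample, which had neither TGFβ nor IL-34, is 1 library and allowed no test. Its Epcam, the gene of a sort marker, was at 657 normalised counts, against 3952 or more in all other samples. Csf1r was at 2001, against 3901 or more. Trem1 at 108 and Treml2 at 734 normalised counts were the lowest of all 11 samples, and Treml4 at 21.0 lay within the range of the TGFβ/IL-34/Jag1 samples. Trem3 at 19.6 was above those 3 samples and below all others. Trem2 at 210 lay between the samples with TGFβ, IL-34 and Jag1, all below it, and those without Jag1, all above it. Hcst at 42.9 was within the TGFβ/IL-34/Jag1 range, Tyrobp at 6015 just below it, and Syk at 11264 was the highest of all 11.

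Ordered by group mean, Trem1, Treml2 and Treml4 shared their top 3 groups: TGFβ/IL-34/FICZ and TGFβ/IL-34, which overlapped, then TGFβ/IL-34/Jag1/FICZ, all of whose samples were below both TGFβ/IL-34 samples. For Trem1 and Treml2 the next groups were TGFβ/IL-34/Jag1 and then Jag1 only, without overlap, and for Treml4 these 2 overlapped at the bottom. TGFβ/IL-34/FICZ replicate 1 was within the TGFβ/IL-34/Jag1/FICZ range for Trem1 and Treml4. Trem3 ran TGFβ/IL-34/Jag1/FICZ, TGFβ/IL-34/FICZ, TGFβ/IL-34, Jag1 only and TGFβ/IL-34/Jag1, with no overlap between neighbours. For Trem2 the groups without Jag1 overlapped at the top and the 2 groups with TGFβ, IL-34 and Jag1 overlapped at the bottom. Neighbouring groups of Hcst all overlapped.

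The balance of Trem1 and Trem2 turned between groups. Per kb, Trem1 was 2.16 and 1.92 times Trem2 in the TGFβ/IL-34 samples, and 0.351, 0.724 and 1.00 times in the TGFβ/IL-34/Jag1 samples. With Jag1 and FICZ it was 5.15, 19.3 and 7.05 times, the highest 3 values of the 11. The 2 TGFβ/IL-34/FICZ samples were at 0.295 and 3.58, on either side of equality, and the Jag1 only sample was at 0.186.

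Over all 11 samples, the genes whose log2 values were most like each receptor were listed among genes with a mean of at least 50 normalised counts, as a description of samples that share groups and libraries. Treml2 was the nearest gene to Trem1 (Pearson r = 0.990), followed by Siglecf and Unc5b (both 0.979), and Trem1 was the nearest to Treml2, followed by Unc5b (0.984) and Hic1 (0.975). Treml4 was nearest to Ttc9 (0.983), Siglecf (0.976) and Trem1 (0.975). Trem3, with its peak in the group with both agents, was nearest to Ncaph (0.986), Abcd2 (0.983) and Pecam1 (0.980). Trem2 was nearest to Ass1 (0.953), Pip4p2 (0.950) and Derl2 (0.933). Its r was 0.884 with Tyrobp and 0.254 with Trem1. The nearest genes to Tyrobp were Exoc3 (0.972), Rnf166 and Naa38 (both 0.968), those to Hcst Nmral1 (0.961), Psmg1 (0.958) and Haus4 (0.940), and those to Syk Plekho2 (0.962), Traf3 (0.930) and Psd4 (0.918).

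The chromosome 17 cluster holds further genes of the family. Within 100 kb of the 5 receptors the table had 8 other genes, 5 of them tested and 3 called in both main comparisons. These 3 carry clone names in the table and were matched by Ensembl ID to TREM genes of the annotation after their values had been seen: 9830107B12Rik is Trem5 (48436215 to 48453482, - strand), A530064D06Rik is Trem4 (48456296 to 48474443, - strand) and B430306N03Rik is Trem6l (48623158 to 48634052, + strand). A530064D06Rik was at 462 and 408 normalised counts in TGFβ/IL-34, at 24.9, 48.0 and 90.5 in TGFβ/IL-34/Jag1 and at 350, 465 and 504 with Jag1 and FICZ. Its log2 fold change was -3.16 with Jag1 (adjusted p = 0.00257) and 3.16 with FICZ in the presence of Jag1 (adjusted p = 0.000515), so it moved like the 4 receptors.

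B430306N03Rik, which lies between Treml2 and Trem2, was at 1090 and 1005 normalised counts, at 70.5, 141 and 228, and at 385, 394 and 486 in the same 3 groups. It fell with Jag1 (log2 fold change -2.98, adjusted p = 0.00179) and rose with FICZ to a level that stayed below TGFβ/IL-34 (log2 fold change 1.67, adjusted p = 0.00838). 9830107B12Rik was rare, at 13.2 and 28.8, at 3.17, 2.60 and 1.37, and at 59.3, 97.7 and 87.8 (log2 fold changes -2.65 and 4.62, adjusted p = 0.0182 and 0.000208). Its first call did not hold on leaving out either TGFβ/IL-34 sample (log2 fold changes -3.18 and -2.11). It was also lost with a replicate block (adjusted p = 0.125), whose numbers do not follow the labels' experiment codes in this comparison. The other 2 tested genes of the region are no TREM genes and were not called: Nfya, a subunit of a general transcription factor, had log2 fold changes of 0.09 and -0.05, and Oard1 of 0.40 and -0.22. Treml1, a platelet receptor in the same cluster, was at 0 to 6.54 normalised counts in all samples and was not tested.

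**Figure D4:**
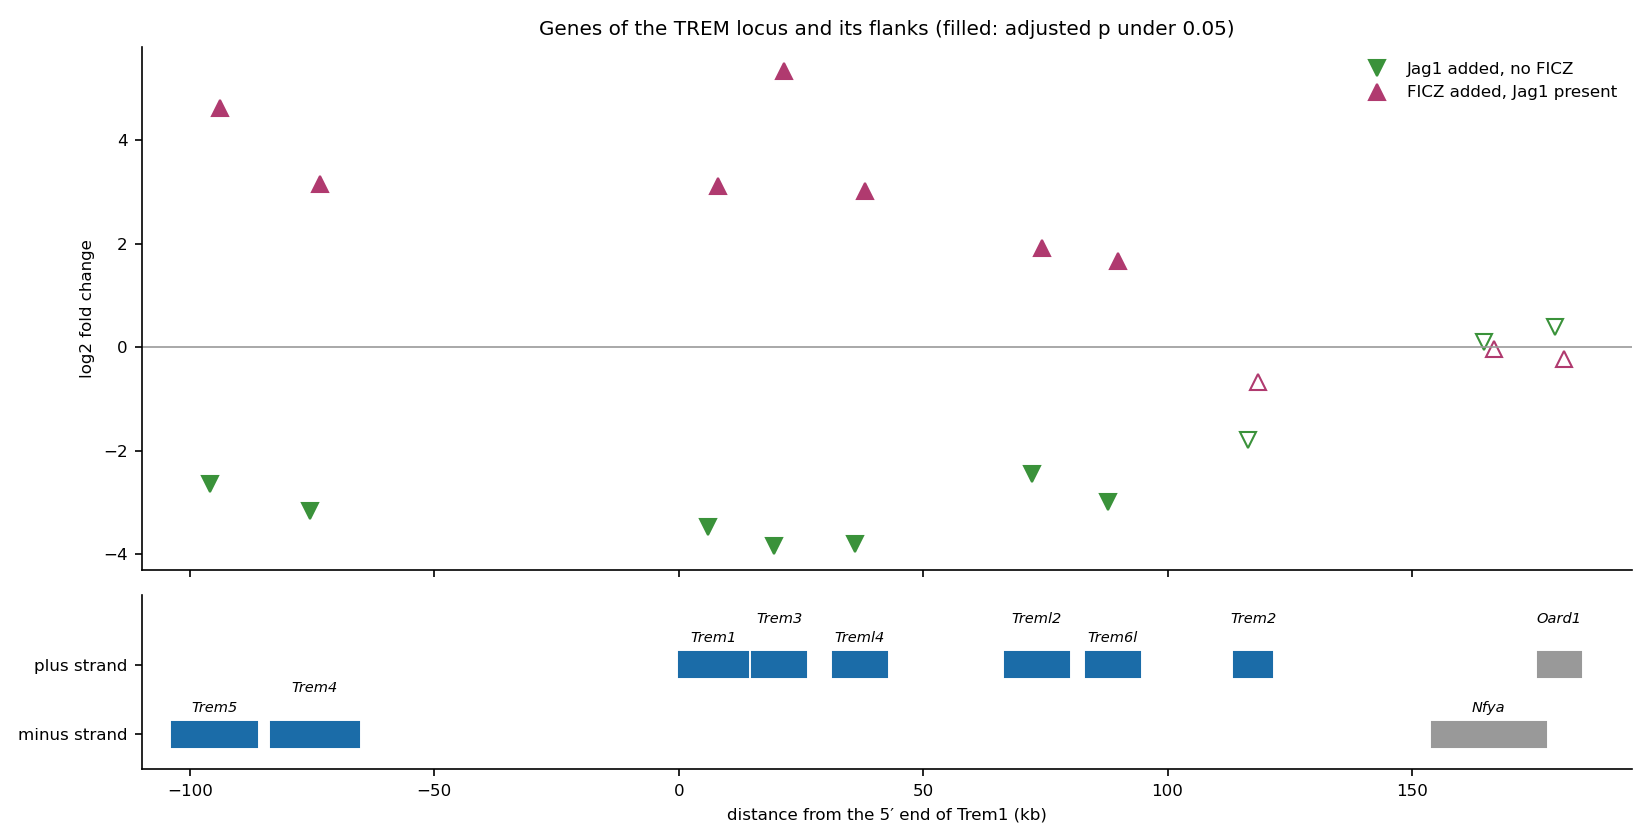
Log2 fold change of the tested genes of the chromosome 17 cluster with Jag1 (no FICZ) and with FICZ (in the presence of Jag1), by distance in kb from the 5′ end of Trem1, with the gene positions by strand below (TREM genes blue, others grey). Filled points are adjusted p under 0.05 (limma). The TREM genes other than Trem2 lie at -2.45 or lower in the first and at 1.67 or higher in the second comparison, Trem2 is at -1.79 and -0.68, and Nfya and Oard1 lie near 0.

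The other genes of the pathway were counted in 6 lists, for the 2 main comparisons, in which 6.6% (Jag1 without FICZ) and 17.7% (FICZ with Jag1) of all genes tested were called in either direction. Among 9 tested receptors that pair with Tyrobp or Hcst, Jag1 without FICZ called 1 higher and none lower (limma, 6 at an unadjusted p under 0.05), and FICZ with Jag1 called 2 higher and 1 lower (33.3%). Siglech, a Tyrobp-paired receptor typical of plasmacytoid dendritic cells and microglia, was at 3.28 and 5.49 normalised counts in TGFβ/IL-34 and at 30.0, 158 and 161 in TGFβ/IL-34/Jag1 (log2 fold change 4.14, adjusted p = 0.0314, lost in 5 of 16 alternatives), and fell by 5.93 on the log2 scale with FICZ in the presence of Jag1 (adjusted p = 0.00116), the reverse of the TREM genes. Klrk1, the receptor that uses Hcst, rose from 201 ± 36.8 to 726 ± 27.9 normalised counts (SD, n = 3 each, log2 fold change 1.87, adjusted p = 0.000258) and was at 2251 in the Jag1 only sample. The NK and T cell marker sums were also higher with FICZ in the presence of Jag1, and their part in the Klrk1 values was not tested. Cd300lb, another activating receptor that can pair with Tyrobp, rose by 1.31 on the log2 scale (adjusted p = 0.00414).

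The called kinases and steps after Syk had log2 fold changes between -1.31 and 1.15. Of 7 tested ITAM partners and kinases, Lyn rose (0.70, adjusted p = 0.0265) and Src (-0.80, adjusted p = 0.0307) and Btk (-0.85, adjusted p = 0.0276) fell with Jag1, each of these calls being lost on leaving out a TGFβ/IL-34 sample, and Lyn, a kinase that phosphorylates activating and inhibitory motifs, fell with FICZ in the presence of Jag1 (-0.81, adjusted p = 0.0029). Of 17 steps after Syk, Malt1 alone was called with Jag1 (1.15, adjusted p = 0.0335, lost in 7 of 16 alternatives). With FICZ in the presence of Jag1, 4 of the 17 (23.5%) were called, near the share over all genes: Pik3r1, a regulatory subunit of phosphatidylinositol 3-kinase (1.00, adjusted p = 0.00652), and Vav3 (0.95, adjusted p = 0.00635) rose, and Card9, the adaptor between Syk and NF-κB (-1.31, adjusted p = 0.00798), and Vav1 (-0.90, adjusted p = 0.00505) fell. Of 10 inhibitors of ITAM signalling none passed the test with Jag1 (limma, 1 at an unadjusted p under 0.05), and with FICZ in the presence of Jag1 Ubash3b (0.93) and Cblb (0.71) rose and Inpp5d (-0.87), the phosphatase SHIP1, fell, these 3 calls (30% of the list) being lost in 8, 5 and 4 of 17 alternatives.

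Among 7 TREM ligands and sheddases none passed with Jag1 (limma, 0 at an unadjusted p under 0.05), and with FICZ in the presence of Jag1 2 rose and 1 fell (42.9%, against 17.7% of all genes). Apoe, an apolipoprotein bound by Trem2, rose from 271 ± 236 to 2135 ± 624 normalised counts (SD, n = 3 each, log2 fold change 3.28, adjusted p = 0.00461). Pglyrp1, a peptidoglycan-binding protein that is a ligand of Trem1, rose from 54.9 ± 20.3 to 279 ± 18.6 (log2 fold change 2.40, adjusted p = 0.00156). Lgals3, a galectin that binds Trem2, fell from 53169 ± 5830 to 15618 ± 5657 (log2 fold change -1.82, adjusted p = 0.00168). Pglyrp1 is itself a granule protein of neutrophils, whose marker sum was higher in the same samples, although the markers Csf3r and Mpo had lower means. The part of these cells in the Pglyrp1 values was not tested.

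The last list held 20 genes known from TREM2-positive lipid-associated macrophages. With Jag1, 2 were higher and 7 lower (45%, against 6.6% of all genes), with a median log2 fold change of -1.04, but only 4 of these 9 calls remained without TGFβ/IL-34 replicate 1 and 4 without replicate 2. Gpnmb, a lysosomal glycoprotein (-2.74, adjusted p = 0.000554), Lpl, lipoprotein lipase (-2.49, adjusted p = 0.000533), and Cst7, an inhibitor of lysosomal proteases (-2.32, adjusted p = 0.00328), fell, though Cst7 lost its call without TGFβ/IL-34 replicate 2 (-2.12, adjusted p = 0.0620). Plin2, the coat protein of lipid droplets, rose with Jag1 (1.97, adjusted p = 0.000458). With FICZ in the presence of Jag1, 6 rose and 6 fell (60%, against 17.7% of all genes), with a median of 0.19. Cst7 rose from 20.5 ± 2.88 to 691 ± 203 normalised counts (SD, n = 3 each, log2 fold change 4.98, adjusted p = 1.02e-05), Gpnmb from 684 ± 157 to 6411 ± 1590 (3.23, adjusted p = 4.58e-05) and Spp1, osteopontin, by 2.57 on the log2 scale (adjusted p = 0.00511), while Plin2 fell from 7706 ± 1652 to 1281 ± 180 (-2.58, adjusted p = 2.13e-05). Cst7 and Gpnmb thus fell and rose in the same comparisons as Trem1, and Trem2 itself passed the test in neither.

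**Figure D5:**
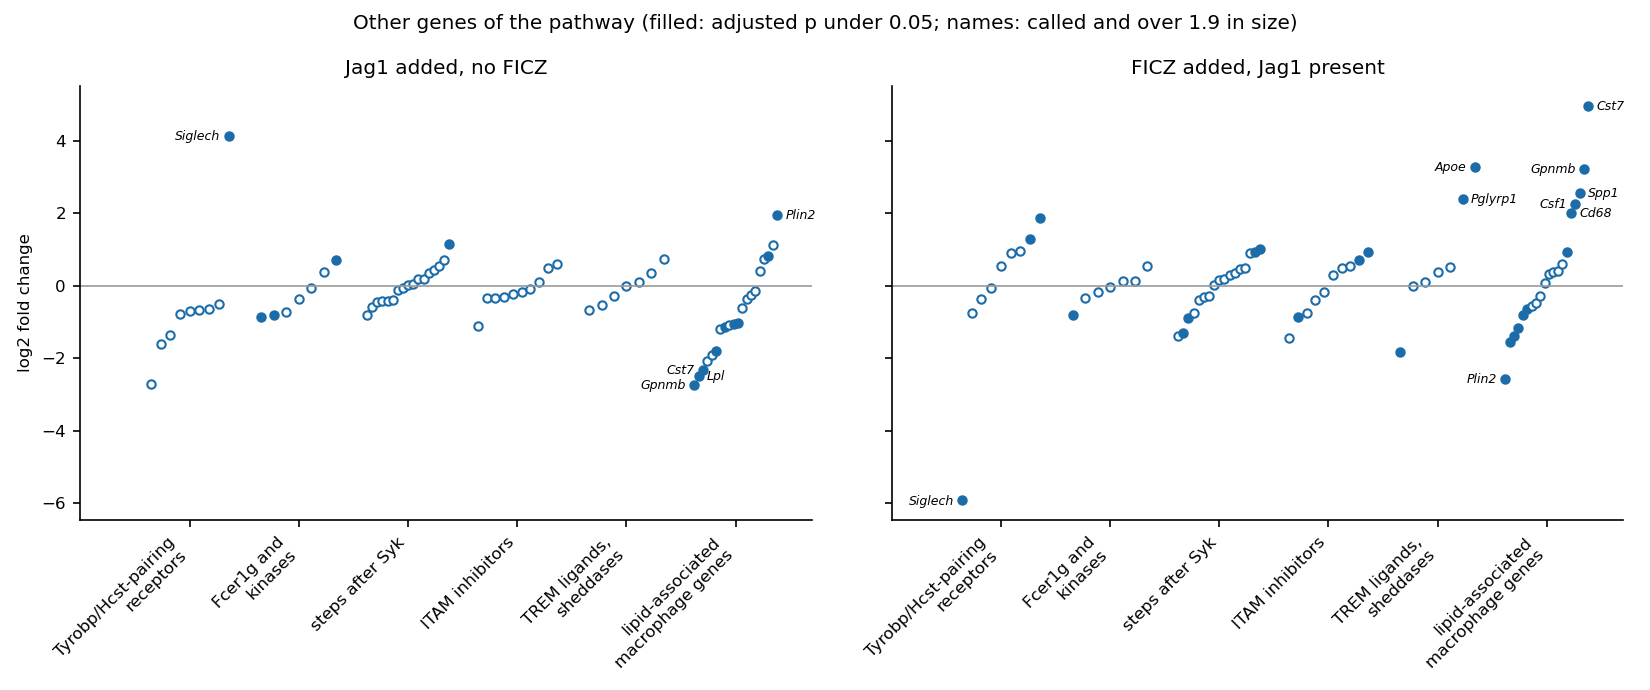
Log2 fold change of every tested gene of the 6 pathway lists with Jag1 (no FICZ) and with FICZ (in the presence of Jag1), filled points being adjusted p under 0.05 (limma), the called genes with the largest changes named. Siglech lies at 4.14 and -5.93, and Cst7 at -2.32 and 4.98.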

How the data were processed

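Per the labels and the study's methods, total RNA of sorted cells was sequenced and reads were quantified with salmon against Ensembl GRCm39 and summarised with tximport; versions and strand setting are not given in the sources used here. The authors deposited counts normalised with DESeq2 size factors, a signal with no gene length correction, and these values were used as deposited. Raw counts were not used here, and whole reads could be recovered only in part (in 78.2% to 98.2% of low values within 0.1 of a whole number), so no count test was run. Read numbers of Trem3, which has 2 annotated transcripts, are its values divided by the step of each sample and rounded. The total per sample and the step set the precision, and intervals on reads cover counting error only.

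Of the 21860 genes, 21676 matched GENCODE vM39 by Ensembl ID and 184 did not. limma 3.58.1 (R 4.3.3) was fitted to log2(value + 1) of 13095 genes that reached 10 normalised counts in 2 or more samples, with 1 mean per group over all 11 samples (6 residual degrees of freedom), moderated with a trend, two-sided, and adjusted over all genes tested (threshold 0.05). Fold changes of low genes are understated by the pseudocount of 1. The fit was tried on simulated counts with no experiment or flow cell effect and no discordant sample. That trial therefore cannot show how such effects act on the calls here. All 8 genes are named, from each list the called genes with the largest changes, and for each of the 8 the 3 genes with the highest correlation. The 8 genes, the lists and the motifs were chosen with earlier results of these data known. Cd68 stands in both the macrophage list and the leukocyte markers. Treml6, Trem5 and the T cell marker Trac had no row under these symbols.

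Same-numbered samples of the TGFβ/IL-34/Jag1 group and its FICZ counterpart share an experiment code in their labels, and their deviations from the group means correlated at 0.153, 0.122 and 0.166, so the numbers pair these samples. The TGFβ/IL-34/FICZ samples share the codes of the same-numbered samples with both agents as well, with correlations of 0.0591 and 0.0578. In other pairs of groups the numbers do not follow the codes (correlations between -0.00699 and 0.0475) and were taken as names. The experiment code of 1 sample (TGFβ/IL-34 replicate 1) differs between its label and the authors' file, and both codings were tried. Alternatives were quantile normalisation, pseudocounts of 0.5 and 4, no filter, the compared groups only, array weights, the replicate block, experiment code, and leaving out each sample. The authors' file code, the flow cell and the omission of TGFβ/IL-34/FICZ replicate 1 throughout were added after the data had been seen. Promoter windows were read from the GRCm39 genome, both strands were searched, and 31-base words were compared between all GENCODE transcripts.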

Additional observations from a re-analysis of the deposited data

Results flagged for a closer look

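The effect of FICZ differed with and without Jag1 for 4 of the 8 genes in the test of the difference itself (limma interaction). Trem1 differed by 3.10 on the log2 scale, with FICZ effects of 3.11 with Jag1 and 0.02 without it. Trem3 differed by 4.56 (5.34 and 0.78), Treml2 by 1.87 (1.92 and 0.04) and Treml4 by 3.04 (3.01 and -0.03). The neutrophil marker sum was 2524 to 3331 with FICZ alone and 7113 to 10592 with FICZ and Jag1. The part of these cells in the difference was not tested. The calls rest on few samples: 0 of the 4 passed the threshold without TGFβ/IL-34 replicate 1 or 2, without TGFβ/IL-34/FICZ replicate 1 or without any one TGFβ/IL-34/Jag1/FICZ sample.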

How the results depend on the processing

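The counts of 4 genes lower with Jag1 and 4 higher with FICZ in the presence of Jag1 ranged from 4 to 5 over 16 and 17 alternatives, and Trem1, Trem3, Treml2 and Treml4 kept both calls in all of them. Of 784 values of the 8 genes under alternatives, 678 kept their direction and side of the threshold, 52 lost the call, 32 gained it and 22 changed sign. With a replicate block, 5 of the 8 were called with Jag1 and FICZ together (main 0) and 0 with Jag1 in the presence of FICZ (main 1, Trem2). Trem2 passed with Jag1 and no FICZ (-1.82, adjusted p = 0.0353) and Syk with FICZ in the presence of Jag1, and no other count of these genes changed. In comparisons with the TGFβ/IL-34 group the replicate numbers do not follow the labels' experiment codes, so there the block pairs samples by name only.

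For Jag1 and FICZ together, 5 genes were also called under array weights or a fit of only the compared groups, and 1 after blocking on the labels' experiment code or on the flow cell and without TGFβ/IL-34/FICZ replicate 1. For Jag1 in the presence of FICZ, 2 were called after quantile normalisation and 0 with a pseudocount of 0.5, without a filter, with only the compared groups and with array weights, and between 0 and 2 on leaving out 1 sample. The interaction gave 0 without a filter and with array weights, and 1 after blocking on the labels' experiment code. Leaving out 1 sample also moved the counts of FICZ without Jag1 and of the interaction. Both were highest without TGFβ/IL-34/FICZ replicate 2, which leaves replicate 1 alone in its group. The calls over all genes were highest there as well.

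The sign changes concern differences that did not pass the test as reported, though Trem2 for FICZ without Jag1 was at 2.46 without TGFβ/IL-34/FICZ replicate 2. For FICZ without Jag1, quantile normalisation gave -0.00689 for Trem1, -0.0833 for Treml2 and 0.0340 for Treml4. Blocking on the labels' experiment code gave 0.344 for Treml4 and 0.0548 for Syk, and the flow cell 0.382 and 0.0225. Leaving out 1 sample at a time gave -0.322 to 0.361 for Trem1, -0.114 to 0.201 for Treml2 (-0.0490 without TGFβ/IL-34 replicate 2), -0.711 to 0.642 for Treml4 (0.195 without TGFβ/IL-34 replicate 2), -0.450 to 2.46 for Trem2 and -0.300 to 0.123 for Syk. For both agents together, Syk was -0.0426 after quantile normalisation, -0.0177 with the replicate block, and -0.0286 to 0.0598 without 1 sample, and Hcst -0.155 to 0.753. Jag1 in the presence of FICZ gave -0.107 to 0.315 for Syk without 1 sample, and the interaction of Hcst was -0.0873 after quantile normalisation and -0.116 to 0.793 without 1 sample. Quantile normalisation moved the median interaction of all genes from 0.0669 to -0.0346.

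Over all genes, the numbers called ranged over the alternatives from 195 to 2627 for Jag1 (main 864), 0 to 5718 for FICZ without Jag1 (main 3), 35 to 3558 for both (main 587), 1387 to 4171 for FICZ with Jag1 (main 2312), 0 to 5820 for Jag1 with FICZ (main 264) and 8 to 5488 for the interaction (main 182), and 5718, 5820 and 5488 came without TGFβ/IL-34/FICZ replicate 2. The causes were not tested. Trem3 in TGFβ/IL-34/Jag1 rests on 7 reads, so depth limits its fold change.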
